A study of Agaricus bisporus with 16 samples.

Results

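Laccases are multicopper oxidases that a fungus secretes to oxidise phenols with molecular oxygen, and in the button mushroom Agaricus bisporus they are known for acting on the lignin and phenolic matter of compost. Laccase activity of this fungus is known to be high while the mycelium colonises compost and to decline as mushrooms form. The genome holds a family of such genes, and lcc1, lcc2 and lcc10 are 3 of its members. They were chosen by gene identifier, 146228 for lcc1, 139148 for lcc2 and 120944 for lcc10 (AGABI2DRAFT locus tags), 3 genes of the 9520 that every file lists. The reference table of the assembly Agabi_varbisH97_2 names 12 genes lcc with a number; 6 of these have values in the files, and the other 6 were not analysed here. In that table lcc1 and lcc2 lie next to each other, and so do lcc9 and lcc10. The genes lcc1 and lcc2 are known to be closely similar in sequence. How the authors' counting treated reads shared by such copies is not given in the sources used here, so the level of each alone carries an uncertainty. Their sum is free of it only if such reads were divided and none were dropped, which was not tested.

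RNA was sequenced from compost colonised by the mycelium of the strains 219 30P, 245 AMA-7, 065 BP-8 and A15, the last being the commercially cultivated strain. Crates of each strain were sampled on day 39 from spawning (first flush) and on day 27 (pinning), with 2 libraries per strain and day and 16 in all. The labels do not tell whether duplicates stem from different crates; the p-values therefore reflect only how these samples spread, which may be technical. The study asked how strains differ from A15 over the life cycle.

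The values were taken to be FPKM (fragment counts divided by transcript length and by sequencing depth) and sum to between 832823 and 913010 per library. The steps between low values put 1 read in a gene of 1 kilobase at 0.128 to 0.144 FPKM, with introns counted in the gene lengths, and the libraries differed 1.13-fold in depth. On that scale the lowest value of the 3 genes, 3.98 FPKM for lcc10, rests on roughly 62 reads. The A15 files list 9520 genes and the others 10438, so the A15 tables were made or filtered separately, and in every comparison with A15 the strain and the table cannot be told apart. In compost samples, less mycelium of one kind and less RNA per cell cannot be told apart either. Differences are given on the log2(FPKM + 1) scale with the standard error (SE) of limma over 8818 genes, and adjusted p-values are Benjamini-Hochberg values over all of those genes.

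The most abundant of the 3 was lcc2, which exceeded lcc1 in all 16 libraries. On day 39 it stood at 159 and 218 FPKM in 219 30P, against 3027 and 1676 FPKM on day 27. In 245 AMA-7 it stood at 161 and 151 FPKM on day 39, against 621 and 357 FPKM on day 27. In 065 BP-8 it stood at 228 and 283 FPKM on day 39, against 1667 and 2091 FPKM on day 27. The days did not overlap in any of these strains, and day 39 was the lower one. How many of all genes separated in this way was not counted. By limma, 34.8% of all genes tested fell in 219 30P, 25.3% in 245 AMA-7 and 28.1% in 065 BP-8. In A15 lcc2 had 1640 and 1832 FPKM on day 39 and 963 and 2151 FPKM on day 27, so that the day 39 libraries lay inside the range of the day 27 pair.

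Among the genes of a library lcc2 ranked high. By level it was number 44 and 45 of the 9520 genes in the A15 libraries of day 39, against 31 and 99 on day 27. In 219 30P it ranked 594 and 870 on day 39, against 24 and 41 on day 27. In 065 BP-8 its ranks were 471 and 576 on day 39 and 30 and 39 on day 27, and in 245 AMA-7 they were 844 and 939 on day 39 and 197 and 357 on day 27. Even after its fall, lcc2 stayed among the upper 9.86% of genes in every library.

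The neighbouring gene lcc1 moved in the same strains over a wider range. In 219 30P it had 13.7 and 16.9 FPKM on day 39, against 1871 and 774 FPKM on day 27. In 245 AMA-7 it had 12.9 and 14.7 FPKM on day 39, against 133 and 83.5 FPKM on day 27. In 065 BP-8 it had 49.9 and 63.5 FPKM on day 39, against 1217 and 1073 FPKM on day 27. Its days were far apart in these strains, whereas in A15 they overlapped, with 740 and 625 FPKM on day 39 and 294 and 680 FPKM on day 27. In rank, lcc1 was number 5421 and 5849 of 9520 in 219 30P on day 39, against 39 and 130 on day 27. In 245 AMA-7 it likewise stood below the middle of the library, at 5966 and 6304 on day 39, against 1085 and 1759 on day 27. In 065 BP-8 it ranked 2348 and 2872 on day 39, against 63 and 71 on day 27, and in A15 160 and 213 on day 39, against 174 and 465 on day 27.

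**Figure D1:**
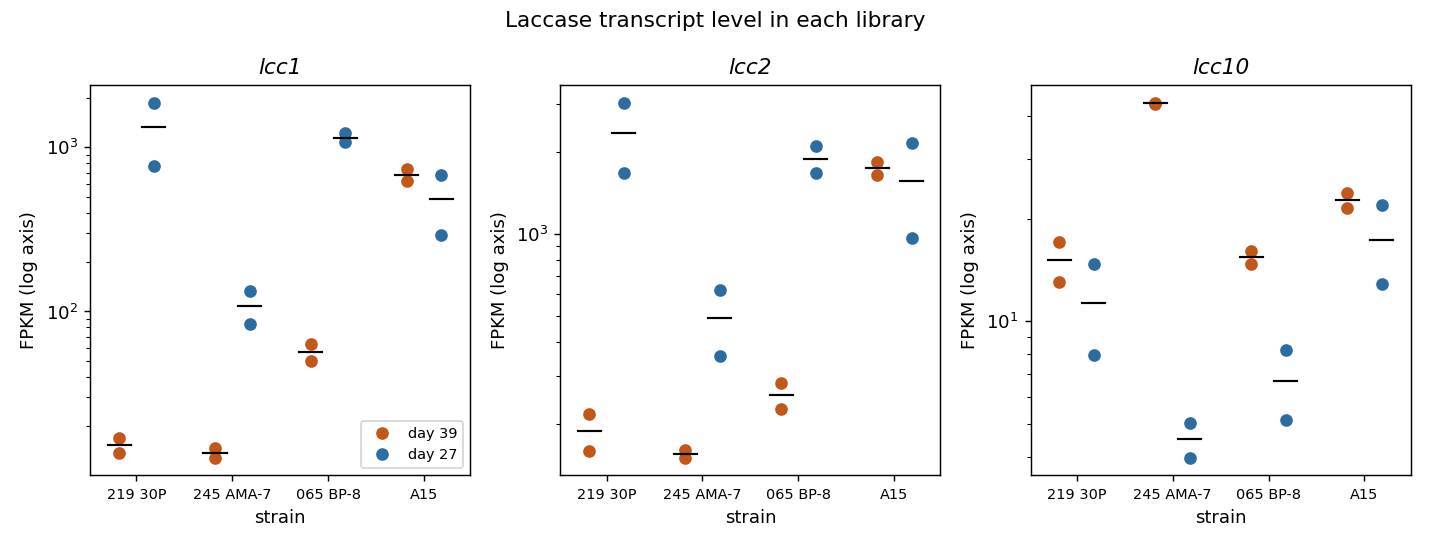
Levels of lcc1, lcc2 and lcc10 in FPKM on log axes, by strain, with day 39 (orange) left of day 27 (blue); points are libraries and bars are means of 2. In 219 30P, 245 AMA-7 and 065 BP-8 the day 39 points of lcc1 and lcc2 lie below the day 27 points, in A15 they overlap, and lcc10 reaches its highest values, 43.3 and 43.8 FPKM, in 245 AMA-7 on day 39.

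The gene lcc10 was below lcc2 in every library and below lcc1 in all but 3 libraries of day 39, and where its day effect passed it was higher on day 39. In 245 AMA-7 it had 43.3 and 43.8 FPKM on day 39, against 5.03 and 3.98 FPKM on day 27. In 065 BP-8 it had 14.7 and 16.1 FPKM on day 39, against 8.24 and 5.15 FPKM on day 27. Both strains had day 39 libraries above their day 27 libraries. By limma, 37.8% of all genes tested rose in 245 AMA-7 and 34.5% in 065 BP-8. In 219 30P the days overlapped, with 17.1 and 13.1 FPKM on day 39 and 14.7 and 7.97 FPKM on day 27. They overlapped in A15 too, with 21.4 and 23.8 FPKM on day 39 and 12.8 and 21.9 FPKM on day 27. The rank of lcc10 ran from 3268 of 9520 in 245 AMA-7 on day 39 to 7510 in the same strain on day 27.

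Between pinning and the first flush, lcc1 and lcc2 fell in each strain other than A15. In 219 30P, where 34.8% of all genes tested fell, lcc1 fell by 6.22 ± 0.40 (log2, SE; limma adjusted p = 1.09e-07) and lcc2 fell by 3.59 ± 0.37 (adjusted p = 4.01e-06). These were the changes at place 5 and 19 from the lowest of 8818. In 065 BP-8, where 28.1% of genes fell, lcc1 fell by 4.32 ± 0.40 (adjusted p = 1.95e-06) and lcc2 fell by 2.87 ± 0.37 (adjusted p = 2.51e-05), at place 10 and 35. In 245 AMA-7, where 25.3% of genes fell, lcc1 fell by 2.85 ± 0.40 (adjusted p = 6.08e-05) and lcc2 fell by 1.59 ± 0.37 (adjusted p = 0.00233), at place 51 and 307. In A15, where 62.3% of genes passed in either direction, none of the 3 did. There the differences were 0.60 ± 0.40 for lcc1, 0.27 ± 0.37 for lcc2 and 0.41 ± 0.29 for lcc10 (limma adjusted p = 0.209, 0.544 and 0.233), beside a median of 0.24 over all genes. The A15 values rest on a day 27 pair that differed widely: without its replicate 2, lcc1 passed with a rise of 1.21, and without its replicate 1, lcc2 stood at -0.31.

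The gene lcc10 rose in 245 AMA-7 by 3.02 ± 0.29 (limma adjusted p = 2.19e-06), the change at place 91 from the highest, in a strain where 37.8% of genes rose. It rose in 065 BP-8 by 1.12 ± 0.29 (adjusted p = 0.00448), at place 1066, where 34.5% of genes rose. In 219 30P, where 27.6% of genes rose, its difference was 0.43 ± 0.29 (adjusted p = 0.215), which became 0.83 and passed without replicate 1 of day 27.

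**Figure D2:**
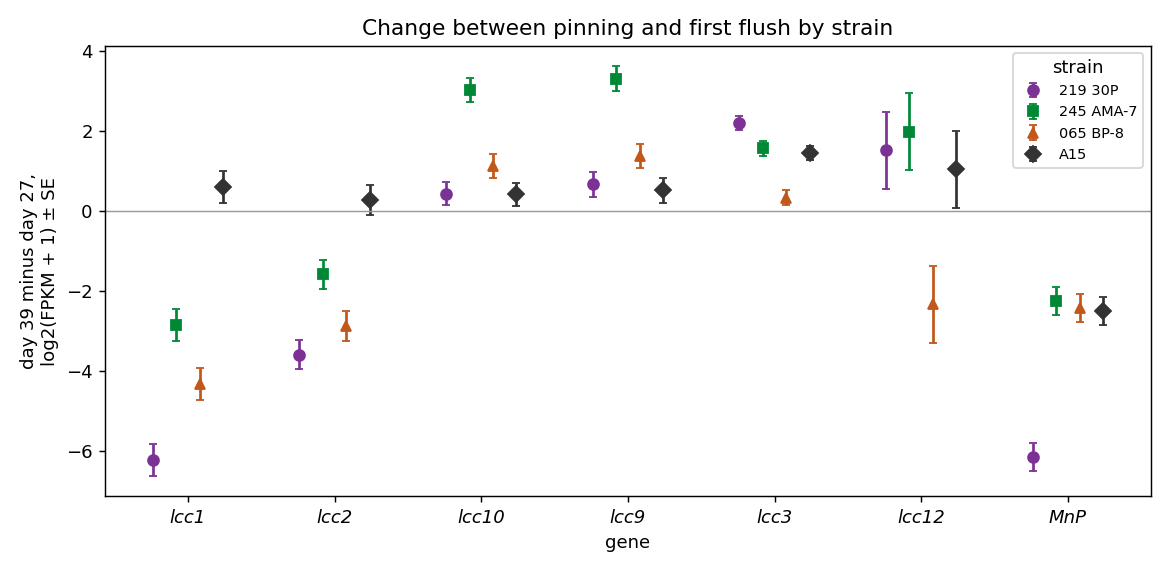
Day 39 minus day 27 on the log2(FPKM + 1) scale with the SE from limma, for lcc1, lcc2, lcc10, the other listed laccases and the manganese peroxidase gene MnP, each strain a symbol. For lcc1 and lcc2 the A15 symbol lies above 0 and the other strains lie between -6.22 and -1.59, while the lcc10 and lcc9 symbols all lie above 0 with 245 AMA-7 highest.

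The day effect differed between strains for each of the 3 genes in the limma F test, which 70.7% of all genes passed (adjusted p = 1.78e-05 for lcc1, 0.000266 for lcc2 and 0.000426 for lcc10). Pairwise, the day effect of lcc1 in 219 30P minus that in A15 gave a log2 difference of -6.82 ± 0.57 (limma adjusted p = 8.17e-06; 50.4% of genes passed). The same difference was negative for 065 BP-8 (-4.92 ± 0.57, adjusted p = 0.000102; 39.1% passed) and for 245 AMA-7 (-3.46 ± 0.57, adjusted p = 0.000936; 30.7% passed). For lcc2 the same differences were -3.85 ± 0.52, -3.14 ± 0.52 and -1.86 ± 0.52 (adjusted p = 0.00012, 0.000754 and 0.0175), the last of which did not pass when replicate 1 of day 27 or replicate 2 of day 39, of either strain, was left out (-1.28 to -1.81). The fall of lcc1 was smaller in 245 AMA-7 than in 219 30P (difference 3.36 ± 0.57, adjusted p = 0.000551; 46.0% passed), and so was that of lcc2 (2.00 ± 0.52, adjusted p = 0.00783). Between 065 BP-8 and 219 30P the day effect of lcc1 differed by 1.90 ± 0.57 (adjusted p = 0.0255; 30.0% passed), which did not pass when replicate 2 of either day of 065 BP-8 or replicate 1 of either day of 219 30P was left out (1.26 to 1.81). Between 065 BP-8 and 245 AMA-7 the day effects of lcc1 and lcc2 differed by -1.47 ± 0.57 and -1.28 ± 0.52 without passing (adjusted p = 0.0662 and 0.0752; 32.6% passed), although both passed when only these strains were fitted (adjusted p = 0.0116 and 0.0294).

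For lcc10 the rise in 245 AMA-7 stood apart from each other strain. The difference was 2.62 ± 0.41 against A15 (limma adjusted p = 0.000632) and 2.60 ± 0.41 against 219 30P (adjusted p = 0.00032). Against 065 BP-8, coded as 065 BP-8 minus 245 AMA-7, it was -1.90 ± 0.41 (adjusted p = 0.00419). No other pair passed for lcc10 (adjusted p = 0.183 to 0.974), and in 219 30P and A15 the day effects were 0.43 and 0.41.

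The strains kept different orders on the different days. On day 27, lcc1 averaged 1323 ± 775 FPKM in 219 30P, 1145 ± 102 FPKM in 065 BP-8, 108.5 ± 35.4 FPKM in 245 AMA-7 and 487 ± 273 FPKM in A15 (SD, n = 2 each). The upper pair, 219 30P and 065 BP-8, did not differ beyond its spread (-0.07 ± 0.40 as 065 BP-8 minus 219 30P, limma adjusted p = 0.912; 26.8% of genes passed). The level of 065 BP-8 was above that of A15, next in order, by 1.35 ± 0.40 (adjusted p = 0.0174; 26.0% of genes were higher), which did not pass when replicate 1 of 065 BP-8 (1.26) or of A15 (0.75) was left out. Lowest was 245 AMA-7, with -2.07 ± 0.40 against A15 (adjusted p = 0.00168; 17.4% of genes were lower).

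On day 39 A15 had the highest lcc1 level. The means were 56.7 ± 9.63 FPKM in 065 BP-8, 15.3 ± 2.27 FPKM in 219 30P, 13.8 ± 1.32 FPKM in 245 AMA-7 and 683 ± 81.5 FPKM in A15 (SD, n = 2 each). Against A15 the log2 differences were -3.57 ± 0.40 in 065 BP-8, -5.39 ± 0.40 in 219 30P and -5.53 ± 0.40 in 245 AMA-7 (limma adjusted p = 2.56e-05, 6.02e-07 and 5.19e-07), where 28.4%, 40.3% and 29.3% of genes were lower. These comparisons share the same 2 A15 libraries. Among the others, 065 BP-8 was above 219 30P (1.82 ± 0.40, adjusted p = 0.00287; 28.5% of genes were higher) and above 245 AMA-7 (1.96 ± 0.40, adjusted p = 0.00277; 16.3% were higher), while 245 AMA-7 and 219 30P did not differ beyond their spread (-0.13 ± 0.40, adjusted p = 0.797; 55.7% of genes passed).

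For lcc2 the order on day 27 was flatter at the top. It averaged 2351 ± 956 FPKM in 219 30P, 1879 ± 300 FPKM in 065 BP-8, 489 ± 187 FPKM in 245 AMA-7 and 1557 ± 840 FPKM in A15 (SD, n = 2 each). None of the upper neighbours passed (065 BP-8 minus 219 30P -0.27 ± 0.37, 065 BP-8 minus A15 0.37 ± 0.37; limma adjusted p = 0.626 and 0.432). The lcc2 level of 245 AMA-7 was below A15 by a difference of -1.61 ± 0.37 (adjusted p = 0.00432). It no longer passed once replicate 2 of 245 AMA-7 (-1.21) or of A15 (-1.03) was removed. On day 39 it averaged 255 ± 38.8 FPKM in 065 BP-8, 189 ± 41.7 FPKM in 219 30P and 156 ± 7.20 FPKM in 245 AMA-7, against 1736 ± 136 FPKM in A15. Each of the other 3 strains was below A15 (-2.77 ± 0.37, -3.21 ± 0.37 and -3.47 ± 0.37; adjusted p = 8.57e-05, 1.48e-05 and 9.81e-06). No pair among the 3 passed for lcc2 on that day (limma adjusted p = 0.152 to 0.568), with a spread shared by all 16 libraries. Both libraries of 065 BP-8 (228 and 283 FPKM) lay above those of 219 30P (159 and 218 FPKM) and 245 AMA-7 (161 and 151 FPKM). The libraries of 219 30P and 245 AMA-7 overlapped. How many of all genes separated so was not counted.

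For lcc10 the day 27 means were 11.3 ± 4.77 FPKM in 219 30P, 6.70 ± 2.18 FPKM in 065 BP-8, 4.50 ± 0.74 FPKM in 245 AMA-7 and 17.4 ± 6.40 FPKM in A15 (SD, n = 2 each). Neighbours in this order did not differ beyond their spread (limma adjusted p = 0.111 to 0.206), but 245 AMA-7 was below A15 (-1.70 ± 0.29, adjusted p = 0.000664), as was 065 BP-8 (-1.24 ± 0.29, adjusted p = 0.00451; 17.1% of genes were lower). The call for 065 BP-8 was lost without replicate 2 of A15 (-0.88). On day 39, 245 AMA-7 had the highest level, 43.6 ± 0.30 FPKM, against 22.6 ± 1.70 FPKM in A15, a difference of 0.92 ± 0.29 (adjusted p = 0.0173; 24.4% of genes were higher) that no longer passed once either library of 245 AMA-7 (0.92 and 0.91) or replicate 1 of A15 (0.84) was left out. The means of 065 BP-8 and 219 30P were 15.4 ± 0.93 and 15.1 ± 2.87 FPKM, and these strains differed by 0.04 ± 0.29 (adjusted p = 0.928).

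How the 3 genes shared their total also shifted with the day outside A15. On day 39 lcc1 made up 7.19% and 6.80% of the summed FPKM of the 3 in 219 30P, against 38.1% and 31.5% on day 27. In 245 AMA-7 its share was 5.92% and 7.04% on day 39, against 17.6% and 18.8% on day 27. In 065 BP-8 it was 17.1% and 17.5% on day 39, against 42.1% and 33.9% on day 27. Within A15 the share of lcc1 was 30.8% and 25.2% on day 39, against 23.1% and 23.8% on day 27. The share of lcc1 was thus lower on day 39 in every library of the other strains and higher in both A15 libraries.

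The share of lcc2 was 57.6% or more in every library. It was 83.8% and 87.9% in 219 30P on day 39, against 61.6% and 68.2% on day 27, and 77.9% and 78.0% in 065 BP-8 on day 39, against 57.6% and 66.0% on day 27. In 245 AMA-7, where lcc10 gained most, the share of lcc2 was 74.1% and 72.0% on day 39, against 81.8% and 80.3% on day 27. The share of lcc10 there was 20.0% and 20.9% on day 39, against 0.662% and 0.896% on day 27. In 219 30P the share of lcc10 was 8.99% and 5.26% on day 39, against 0.299% and 0.324% on day 27, although its level did not pass the test; the sum of the 3 had fallen to 190 and 248 FPKM, against 4913 and 2458 FPKM on day 27. In 065 BP-8 it was 5.04% and 4.43% on day 39, against 0.285% and 0.162% on day 27, and in A15 it was 0.892% and 0.961% on day 39, against 1.01% and 0.767% on day 27.

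The ratio of a pair of genes in the same library does not depend on how libraries are scaled. That of lcc1 to lcc2 still carries the uncertainty of how reads were divided between these similar copies. The log2 ratio of lcc1 to lcc2 was -3.54 and -3.69 in 219 30P on day 39, against -0.69 and -1.11 on day 27. In 245 AMA-7 it was -3.65 and -3.35 on day 39, against -2.22 and -2.09 on day 27, and in 065 BP-8 it was -2.19 and -2.15 on day 39, against -0.45 and -0.96 on day 27. In A15 it was -1.15 and -1.55 on day 39, against -1.71 and -1.66 on day 27. Over the 4 strains the ratio was lower on day 39 by a mean log2 difference of -1.30 (two-sided exact permutation test of days within strains, p = 0.00926, adjusted p = 0.00926 over 3 ratios). The smallest p that this test can give is 0.00154. The lcc1 to lcc2 ratio moved down in 3 of 4 strains and by 0.34 the other way in A15. Without A15 the mean was -1.84 (exact permutation p = 0.00926, the smallest that 216 arrangements can give).

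The ratio of lcc10 to lcc2 was higher on day 39 by a mean log2 difference of 3.30 (exact permutation p = 0.00463, adjusted p = 0.00926), with 4.06 in 219 30P, 4.88 in 245 AMA-7, 4.12 in 065 BP-8 and 0.16 in A15. The ratio of lcc10 to lcc1 was higher by 4.60 (exact permutation p = 0.00772, adjusted p = 0.00926), with 6.77, 6.22 and 5.58 in the same strains and -0.17 in A15. On day 39 lcc10 exceeded lcc1 in 3 libraries, both of 245 AMA-7 and replicate 1 of 219 30P. The summed level of the 3 genes was lower on day 39 by a mean log2 difference of -2.08, or 4.22-fold (exact permutation p = 0.00617). The change of the sum was -4.00 in 219 30P, -1.45 in 245 AMA-7, -3.22 in 065 BP-8 and 0.36 in A15.

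**Figure D3:**
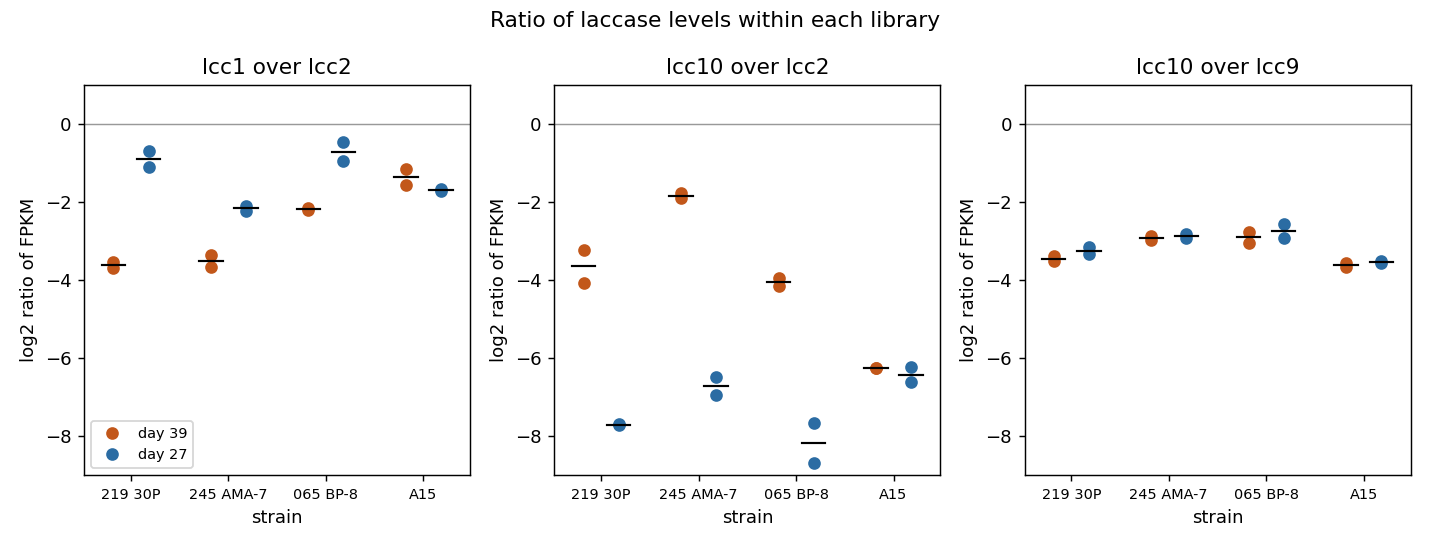
Log2 ratio of FPKM within a library for lcc1 over lcc2, lcc10 over lcc2 and lcc10 over lcc9, by strain, with day 39 (orange) left of day 27 (blue); points are libraries and bars are means of 2. The ratio of lcc10 to lcc9 stays between -3.66 and -2.57 in all 16 libraries, while that of lcc10 to lcc2 spans -8.67 to -1.78.

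The other listed laccases were lcc9, lcc3 and lcc12. The neighbour lcc9 was more abundant than lcc10 in every library, 5.95-fold to 12.6-fold, and the log2 ratio of lcc10 to lcc9 differed between days by a mean of -0.12 (exact permutation p = 0.0756; a comparison added after the values were seen). On day 39 lcc9 had 315 and 344 FPKM in 245 AMA-7, against 35.4 and 29.8 FPKM on day 27. Of these 3 laccases, 1 rose in 219 30P (lcc3), 2 rose in 245 AMA-7 (lcc9 and lcc3), 1 rose and 1 fell in 065 BP-8 (lcc9 and lcc12) and 1 rose in A15 (lcc3). Over all genes tested, 27.6% rose in 219 30P, 37.8% in 245 AMA-7, 34.5% in 065 BP-8 (where 28.1% fell) and 41.3% in A15, so that a count of 1 of 3 is near the share over all genes. The gene lcc12 had 27.6 and 30.3 FPKM in 065 BP-8 on day 39, against 658 and 33.6 FPKM on day 27, so that its fall there rests on a single library, replicate 1. Outside A15, MnP, the manganese peroxidase that also acts on lignin, fell as lcc1 and lcc2 did (-6.14 ± 0.35 in 219 30P, -2.42 ± 0.35 in 065 BP-8 and -2.26 ± 0.35 in 245 AMA-7; limma adjusted p = 4.81e-08, 6.75e-05 and 0.000121). In A15 MnP fell by 2.50 ± 0.35 (limma adjusted p = 5.64e-05), the strain where lcc1 and lcc2 did not pass. The multicopper ferroxidase gene Fet3, a relative of the laccases that serves iron uptake, rose in every strain, by 1.91 ± 0.16 to 4.35 ± 0.16.

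**Figure D4:**
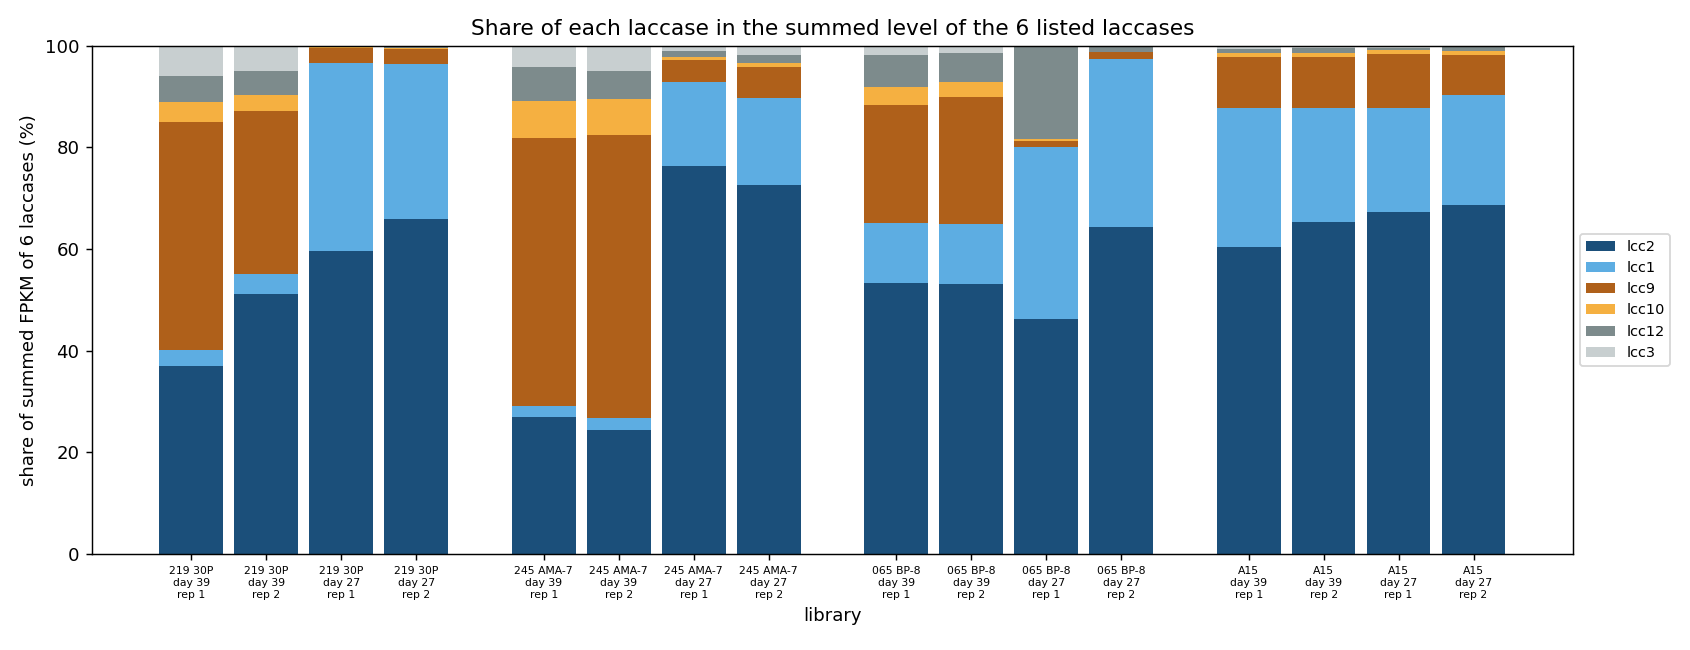
Share in percent of each laccase in the summed FPKM of the 6 listed laccases, 1 bar per library, grouped by strain with day 39 left of day 27. In the A15 libraries lcc2 and lcc1 together fill most of each bar on both days, whereas in 245 AMA-7 on day 39 lcc9 holds 52.8% and 55.7%; the grey block of 18.3% in 065 BP-8 on day 27 is lcc12 in replicate 1.

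Counted over all 6 listed laccases, lcc9 was the most abundant in 3 libraries. Its share was 52.8% and 55.7% in 245 AMA-7 on day 39, against 4.36% and 6.09% on day 27. In 219 30P it was 44.9% and 32.1% on day 39, against 2.93% and 2.81% on day 27, above the share of lcc2 (36.9% and 51.2%) in replicate 1 only. In A15 lcc2 held 60.5% and 65.4% of the 6 on day 39, against 67.3% and 68.7% on day 27.

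Duplicates of lcc1, lcc2 and lcc10 differed more than those of most genes did in 7 of 12 pairs on day 39 and in 11 of 12 pairs on day 27, counting each gene in each strain as a pair. The exceptions were lcc1 in 065 BP-8 on day 27 and, on day 39, lcc10 in 245 AMA-7, 065 BP-8 and A15 and lcc2 in 245 AMA-7 and A15. Pairs wider than the median spread of all genes were counted, so the day 39 count is close to the share among all genes. The genes share libraries within a strain and day, so the pairs are not independent and the counts were not tested. The widest pairs were those of A15 and 219 30P on day 27. In A15 on day 27 replicate 2 was above replicate 1 by 2.32-fold for lcc1, 2.23-fold for lcc2, 1.71-fold for lcc10, 1.63-fold for lcc9 and 1.99-fold for MnP. Only 0.499% of all genes tested had a wider spread in that pair than lcc1. In 219 30P on day 27 replicate 1 was the higher one, by 2.42-fold for lcc1, 1.81-fold for lcc2, 1.85-fold for lcc10 and 2.08-fold for lcc9, and 0.692% of genes spread more than lcc1. The share of lcc1 in the sum of the 3 differed much less between the A15 duplicates of day 27, 23.1% against 23.8%. On day 39 the widest duplicate difference among the 3 genes was 1.37-fold, for lcc2 in 219 30P.

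Across the 16 libraries the gene most like lcc1 of the 8817 others was its neighbour lcc2 (Pearson r = 0.985, Spearman rho = 0.921, on log2(FPKM + 1)). These correlations describe 8 groups of 2 libraries that share strain and day, so no p is given. How the division of reads between lcc1 and lcc2 bears on their correlation was not tested. Next came the gene of identifier 149407, which the reference table does not annotate (r = 0.984 with lcc1 and 0.985 with lcc2). It had 107 and 180 FPKM in 219 30P on day 39, against 5331 and 2749 FPKM on day 27. The third for lcc1 was AGABI2DRAFT_133485 (r = 0.980) and for lcc2 AGABI2DRAFT_201274 (r = 0.983), genes without a name. In all, 52 genes of 8817 had r of at least 0.9 with lcc1, 36 with lcc2 and 4 with lcc10. Those with r of -0.9 or lower numbered 24, 16 and 1. How many genes a typical gene reaches was not counted, so these numbers have no baseline. The most like lcc10 were AGABI2DRAFT_190915 (r = 0.960), its neighbour lcc9 (r = 0.958, rho = 0.941) and AGABI2DRAFT_118963 (r = 0.921). The correlation of lcc10 with lcc1 was -0.363 and with lcc2 -0.304. MnP had r = 0.856 with lcc1.

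The genes that flank the pairs did not take the laccases' course in all strains. Beyond a transfer RNA gene on the lcc1 side lies AGABI2DRAFT_211295, which fell in 219 30P (-1.67 ± 0.38, limma adjusted p = 0.00213) and 245 AMA-7 (-1.60 ± 0.38, adjusted p = 0.00286) but in 065 BP-8 had a difference of 0.27 ± 0.38 (adjusted p = 0.553). On the lcc2 side AGABI2DRAFT_122283 rose in 219 30P (0.81 ± 0.21, adjusted p = 0.00469), 245 AMA-7 (1.47 ± 0.21, adjusted p = 6.65e-05) and A15 (1.49 ± 0.21, adjusted p = 6.32e-05). Next to lcc10, away from lcc9, AGABI2DRAFT_194715 rose most in 065 BP-8 (3.65 ± 0.42, adjusted p = 1.08e-05). It also rose in 245 AMA-7 (1.99 ± 0.42, adjusted p = 0.00127) and 219 30P (1.38 ± 0.42, adjusted p = 0.0125). In these strains 34.5%, 37.8% and 27.6% of genes rose. In A15 its difference was -0.16 ± 0.42 (adjusted p = 0.753). There it averaged 206 ± 48.2 FPKM on day 39 and 232 ± 61.7 FPKM on day 27 (SD, n = 2 each).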

How the data were processed

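Messenger RNA of compost samples was sequenced by the Illumina method, per the labels' protocols. Per the submitters' processing notes the tools were RSEM, BWA and Bowtie, with no version, role or build stated in the sources used here. The authors deposited 1 value per gene and library, taken here as FPKM, a unit inferred from their 2 decimals and from library sums (832823 to 913010) that differ between libraries. Of the 9520 identifiers in every file, 9457 matched the reference table, used for names and neighbours only. No counts are given, so no counting interval or count test was used.

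Log2(FPKM + 1) was fitted for 8818 genes (mean FPKM of 1 or more) by limma 3.58.1 in R 4.3.3 (trend, 1 mean per group, 16 libraries sharing a spread, 8 residual and 4.16 prior degrees of freedom), with Benjamini-Hochberg adjustment and a threshold of 0.05. The fit was tested on simulated data. Ratios and sums were tested by exact permutation of days within strains. Values were read and plotted in Python 3.11.15 (numpy 2.4.6, pandas 2.3.3, matplotlib 3.10.9). The genes and lists were chosen with earlier results of these data known; pairwise differences of day effects and comparisons with lcc9 were added after the values were seen. Named genes were the 3 laccases, other genes with an lcc symbol, MnP, Fet3, the neighbouring genes and the 3 genes most alike by Pearson r. A search for further laccases by protein sequence was planned and not run, as no protein sequences were used here. Alternatives covered pseudocount, filter, scaling, strains fitted, a replicate block and leaving out each library.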

Additional observations from a re-analysis of the deposited data

Results flagged for a closer look

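The change between day 39 and day 27 differed between strains for all 3 laccases in the limma F test of strain by day. The adjusted p was 1.78e-05 for lcc1, 0.000266 for lcc2 and 0.000426 for lcc10, while 70.7% of all genes tested passed the same test. For lcc1 the day effects were -6.22 in 219 30P, -4.32 in 065 BP-8, -2.85 in 245 AMA-7 and 0.60 in A15. For lcc2 they were -3.59, -2.87, -1.59 and 0.27 in the same order, and for lcc10 they were 0.43, 1.12, 3.02 and 0.41. The A15 tables were made or filtered separately, and the part of this in the differences from A15 was not tested. The day effects of 245 AMA-7 and 219 30P differed for each gene (limma adjusted p = 0.000551, 0.00783 and 0.00032), as for 46.0% of all genes. Their means use no A15 library, but the SE comes from a spread shared with the A15 libraries. For 065 BP-8 minus 219 30P only lcc1 passed (limma adjusted p = 0.0255, 0.327 and 0.219 for lcc1, lcc2 and lcc10). For 065 BP-8 minus 245 AMA-7 only lcc10 passed (limma adjusted p = 0.0662, 0.0752 and 0.00419).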

How the results depend on the processing

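Other pseudocounts, filters, scalings and sets of strains in the fit left the direction and the call of 622 of 631 recomputed values as reported. The exceptions with a changed sign were all differences near 0 that did not pass. They were the value of lcc1 in 065 BP-8 minus 219 30P on day 27 (0.07 with quantile normalization), and lcc10 in the same pair on day 39 (-0.07 under quantile normalization and under median-ratio scaling, -0.01 when each library was scaled to the same sum). The day effect of lcc10 in 219 30P minus A15 was -0.01 with a pseudocount of 5. The other 4 exceptions were calls gained for the day effects of lcc1 and lcc2 in 065 BP-8 minus 245 AMA-7 (lcc1 -1.47 with only these strains fitted and -1.67 with a pseudocount of 5, lcc2 -1.28 with only these strains and -1.43 with quantile normalization). With only these strains fitted both differences kept their size. The SE was then 0.30 for lcc1 and 0.35 for lcc2, against 0.57 and 0.52 with all strains. The cause of the gained calls was not tested. With 1 library left out, 409 of 448 values kept direction and call. For comparisons in which a call or sign changed, the lowest and highest values over single libraries left out are given here, the lone library being assumed to vary like the others. On the day effect they were 0.00 and 1.21 for lcc1 in A15, -0.31 and 0.85 for lcc2 in A15, and 0.02 and 0.83 for lcc10 in 219 30P. On day 27 they were 0.79 and 2.06 for lcc1, 0.07 and 1.22 for lcc2 and -0.99 and -0.18 for lcc10 in 219 30P minus A15. For 065 BP-8 minus A15 they were 0.75 and 1.96 (lcc1), -0.20 and 0.95 (lcc2) and -1.60 and -0.88 (lcc10). For 065 BP-8 minus 219 30P they were -0.71 and 0.56 (lcc1), -0.70 and 0.16 (lcc2) and -1.06 and -0.25 (lcc10). For 245 AMA-7 they were -2.19 and -1.03 for lcc2 minus A15 and -1.52 and -0.71 for lcc10 minus 219 30P. On day 39 they were -0.28 and 0.01 for lcc1 in 245 AMA-7 minus 219 30P, 0.84 and 0.99 for lcc10 in 245 AMA-7 minus A15, and -0.14 and 0.22 for lcc10 in 065 BP-8 minus 219 30P. For differences in day effect they were -0.39 and 0.42 for lcc10 in 219 30P minus A15, 1.26 and 2.53 for lcc1 in 065 BP-8 minus 219 30P, -2.44 and -1.28 for lcc2 in 245 AMA-7 minus A15, and -1.68 and -0.88 for lcc2 in 065 BP-8 minus 245 AMA-7, which passed without replicate 1 of 245 AMA-7 on day 27 (-1.68). The ratio and sum tests and the falls of lcc1 and lcc2 outside A15 passed with any single library left out. Counts of all genes called moved by over 1.5 times in 3 comparisons: 065 BP-8 minus 219 30P on day 27 (2360 genes, 1332 without replicate 1 of 219 30P), 065 BP-8 minus A15 on day 27 (3799 genes, 2415 without replicate 2 of A15) and 065 BP-8 minus 245 AMA-7 on day 39 (3343 genes, 1945 to 2218 without replicate 1 of 245 AMA-7 or either replicate of 065 BP-8).

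The labels do not say that equal replicate numbers mark a shared crate or day, and deviations of same-numbered libraries correlated at -0.27 to 0.17 over 28 pairs of groups, so the libraries were not paired. A replicate block changed none of the calls on lcc1, lcc2 and lcc10; the lcc1 fall in 219 30P kept its size of -6.22 ± 0.42 (limma adjusted p = 4.91e-07), and 5504 genes were called there instead of 5506.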
